A study of Homo sapiens with 9 samples.

Results

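Creatine carries high-energy phosphate inside cells, and the genes described here make it, take it up or charge it with phosphate. They are GATM and GAMT for synthesis, SLC6A8 for uptake, CKB and CKM for the cytosolic kinases, and CKMT1A, CKMT1B and CKMT2 for the mitochondrial kinases. The members were taken by gene symbol, and each of the 8 had 1 row of its own among the 17709 rows with 1 gene symbol (21448 rows in all); 0 rows listed CKMT1A together with CKMT1B. The group was chosen by the pathway of CKMT1B, whose high values in both knockdown lines were known when it was put together, so the rows of CKMT1B and of its near-identical copy CKMT1A are described below with no test. The other 6 came in through their place in the pathway and were tested. Earlier results of these data were known when the members were chosen, so their p-values may not be wholly free of that choice. Gene expression was measured with 1-colour whole-transcript arrays in AsPC-1, an established line from human pancreatic adenocarcinoma. The control group carried the blank pBAsi-hU6 NEO plasmid. The sh1 and sh2 groups carried the same plasmid with an insert for shRNA-1 or shRNA-2 against SLP-2, the stomatin-like protein of the mitochondrial inner membrane that STOML2 encodes. Cells of all 3 groups had been selected with Geneticin for 3 weeks and each group was grown from 1 colony, so that a group is 1 clone with 3 arrays. The labels do not tell whether the 3 arrays of a group stem from different cultures, so p-values reflect the spread from array to array within a clone, which may be technical.

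Creatine is built in 2 steps. L-arginine:glycine amidinotransferase, the product of GATM, moves the amidino group of arginine onto glycine, and guanidinoacetate methyltransferase, the product of GAMT, methylates the result with S-adenosylmethionine. SLC6A8 is the sodium- and chloride-dependent transporter through which most cells import creatine. Creatine kinases pass phosphate between ATP and creatine, and the mitochondrial forms do so in the space between both mitochondrial membranes, next to the adenine nucleotide translocator and the porin. CKB is the brain-type and CKM the muscle-type cytosolic enzyme, CKMT1A and CKMT1B encode the ubiquitous mitochondrial form, and CKMT2 encodes the sarcomeric form of striated muscle.

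CKMT1A and CKMT1B lie close together on chromosome 15 as copies of each other, and this may limit what the arrays can separate. How far the array probes separate both copies was not checked. RefSeq windows from 250 bases before to 50 bases after a start site (GRCh38.p14) were found for 7 of the 8 members, with 5 windows for CKMT1A and 2 for CKMT1B. The whole of 1 CKMT1B window, 300 of 300 bases, recurred without a difference in the windows of CKMT1A, and the other matched over 203 of 203 bases that could be compared. The 250 bases upstream of the start are shown for CKMT1B (chr15:43593584-43593833, plus strand), as the stretch that both copies share. Those of GATM (chr15:45378545-45378794, minus strand) and SLC6A8 (chrX:153687676-153687925, plus strand) are shown as the tested genes called against the control in both lines, and those of CKB (chr14:103522831-103523080, minus strand) as a kinase gene called in neither. Capitals mark matches, on either strand, to the letters CCAAT (the box of that name), TATAAA (the core of many promoters near the start), CACGTG (an E-box) and AAGGTCA (an extended nuclear receptor half-site); no matches overlap in these windows.
GATM: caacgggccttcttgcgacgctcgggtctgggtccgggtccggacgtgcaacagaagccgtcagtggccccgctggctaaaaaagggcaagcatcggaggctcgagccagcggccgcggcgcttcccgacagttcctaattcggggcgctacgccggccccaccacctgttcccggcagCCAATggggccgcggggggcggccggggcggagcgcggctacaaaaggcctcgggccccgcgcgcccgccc
SLC6A8: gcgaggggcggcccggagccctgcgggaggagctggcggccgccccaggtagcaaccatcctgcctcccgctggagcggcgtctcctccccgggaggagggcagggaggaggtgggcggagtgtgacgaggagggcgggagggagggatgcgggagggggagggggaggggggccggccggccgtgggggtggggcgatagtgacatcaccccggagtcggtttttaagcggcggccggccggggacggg
CKMT1B: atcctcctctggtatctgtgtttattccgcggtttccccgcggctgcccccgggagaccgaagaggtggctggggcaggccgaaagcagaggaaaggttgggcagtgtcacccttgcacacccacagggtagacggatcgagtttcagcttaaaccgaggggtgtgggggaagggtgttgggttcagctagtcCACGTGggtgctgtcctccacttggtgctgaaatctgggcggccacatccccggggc
CKB: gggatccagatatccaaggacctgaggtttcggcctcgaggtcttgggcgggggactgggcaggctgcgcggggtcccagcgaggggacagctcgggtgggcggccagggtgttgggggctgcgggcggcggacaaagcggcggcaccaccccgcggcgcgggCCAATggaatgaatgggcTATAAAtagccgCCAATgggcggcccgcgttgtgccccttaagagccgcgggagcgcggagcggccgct

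GATM held 1 CCAAT match from base 71 to base 67 before the start, and CKB held 2, with a TATAAA match between them from base 69 to base 64. The CKMT1B window held CACGTG from base 57 to base 52 before its start, and none of the motifs was found in the letters of the SLC6A8 window. Of 35116 windows of 250 bases, 32.0% held the first of these motifs, CCAAT, 10.7% held the second, TATAAA, 6.34% held the E-box and 3.44% held the half-site. AAGGTCA was present in the second upstream window of CKMT1B, from base 56 to base 50 before that start. These matches describe the letters and say nothing about binding.

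STOML2 was lowered in both lines (13.67 ± 0.03 in the control, 8.32 ± 0.12 in sh1 and 7.73 ± 0.34 in sh2, log2 signal, SD, n = 3). Array medians lay between 6.57 and 6.65, and 4.21, the lower quartile over the means of all rows, stands in for the background level. For the marker counts that follow, limma called 18.8% of all rows in sh1 and 16.3% in sh2. Among rows with a mean above the median it called 30.0% and 26.5%. Of the 10 markers of pancreatic ductal epithelium, 6 were called higher and 1 lower in sh1, and 5 higher and 2 lower in sh2. The log2 of their summed signal was 17.28 to 17.40 in the control, 17.72 to 17.83 in sh1 and 17.67 to 17.80 in sh2. Such a sum mostly follows the genes with the highest signal, here KRT8 and KRT19. None of the 10 was under the quartile in all groups, but ESRP1, an epithelial splicing regulator, had a control mean of 4.55, near it, and rose by 9.34 in sh1 and by 3.93 in sh2. EPCAM, an epithelial adhesion protein, rose by 4.94 and 0.74. CDH1, which encodes E-cadherin, rose by 2.03 in sh1 and fell by 0.52 in sh2, the directions that GATM took. No other marker of the 10 was called in those directions. Both lines were higher for KRT8 (0.71 and 0.70), KRT18 (1.21 and 1.27) and CLDN4 (2.08 and 1.84). KRT19 was called lower in both, with differences of -1.69 and -0.57. Of 6 mesenchymal markers, 1 was called higher and 4 lower in sh1, and 1 higher and 2 lower in sh2. The matrix protein gene SPARC rose by 7.16 and 7.06 from a control mean under the quartile, and CDH2, which encodes N-cadherin, differed by -5.11 and -6.08. The log2 summed signal of these 6 was 16.53 to 16.59 in the control, 15.69 to 15.86 in sh1 and 16.39 to 16.61 in sh2. It mostly follows VIM, with means of 16.45, 15.68 and 16.4 in control, sh1 and sh2. Of 5 measured fibroblast markers, 2 were lower in each line, with a log2 summed signal of 11.08 to 11.33 in the control, 9.26 to 9.88 in sh1 and 9.28 to 9.64 in sh2. Of 5 leukocyte markers, 0 were called higher in either line, 2 were lower in sh1 and 1 in sh2 (PTPRC in both, with means under the quartile in both lines). Their log2 summed signal was 12.39 to 12.45 in the control, 11.74 to 12.14 in sh1 and 12.68 to 13.00 in sh2. This sum mostly follows CD68, with means of 12.4, 11.92 and 12.81 in control, sh1 and sh2, and does not stand for the whole list. The part of these markers in the results below was not tested. In these bulk samples, fewer cells that express a gene and less of its RNA per cell cannot be told apart.

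The synthesis gene GATM changed in opposite directions in the knockdown lines. Its log2 signal was 7.07, 7.27 and 7.13 in the control arrays, 10.18, 10.40 and 10.25 in sh1, and 5.93, 6.04 and 6.43 in sh2. The 3 groups did not overlap: every sh1 array lay above every control array, and every sh2 array lay below them. GATM rose by 3.12 ± 0.15 (SE) in sh1, which is 8.69-fold at an adjusted p of 1.16e-07 in limma, and in the other line it fell by 1.02 ± 0.15, which is 2.03-fold (adjusted p = 0.000664). The difference between the lines, sh2 minus sh1, was -4.14 ± 0.15 (adjusted p = 2.57e-08). Only 0.536% of all rows were called in both lines in opposite directions. GATM passed in all 3 comparisons under each of the 19 alternative settings, with a change of 2.40 to 3.18 in sh1 and -1.23 to -0.92 in sh2.

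GAMT, which completes the synthesis, was called higher in sh2, where GATM fell, and was not called in sh1. Its signal was 8.65, 8.43 and 8.75 in the control and 8.54, 8.30 and 8.59 in sh1, so that these groups overlapped, and it was 9.59, 9.40 and 8.92 in sh2, above all control and sh1 arrays. The difference from the control was -0.13 ± 0.18 in sh1 (limma, adjusted p = 0.689). In sh2 GAMT rose by 0.69 ± 0.18, or 1.62-fold (adjusted p = 0.0202), and sh2 exceeded sh1 by 0.83 ± 0.18 (adjusted p = 0.0105). The order of the group means was thus sh1, control, sh2, in which sh1 and control did not differ beyond their spread. The call in sh2 against the control was lost on leaving out array 1 or 2 of the control or array 1 or 2 of sh2 (0.55 to 0.71, adjusted p = 0.0534 to 0.0806), while the difference between the lines passed without any 1 array (0.68 to 1.02, adjusted p = 0.00261 to 0.0434).

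SLC6A8, the creatine importer, rose in both lines. Its signal was 13.45, 12.99 and 13.44 in the control, 14.53, 14.93 and 14.59 in sh1, and 14.03, 14.12 and 13.75 in sh2. All arrays of both lines lay above all control arrays, and all sh1 arrays lay above all sh2 arrays. SLC6A8 also belongs to the 8.93% of rows that limma called in both lines in the same direction. The rise was 1.39 ± 0.17 in sh1, or 2.62-fold, at an adjusted p of 0.000161. In sh2 it was 0.67 ± 0.17, or 1.59-fold, at an adjusted p of 0.0198. The lines differed by -0.72 ± 0.17, sh2 minus sh1 (adjusted p = 0.0193). The sh1 call held without any 1 array (1.24 to 1.47). The sh2 call was lost on leaving out array 2 of the control or array 1 or 2 of sh2 (0.52 to 0.64, adjusted p = 0.0571 to 0.0803), and the difference between the lines without sh1 array 2 or sh2 array 3 (-0.59 and -0.61, adjusted p = 0.0725 and 0.0745). The pseudogene SLC6A10P on chromosome 16 is a near copy of SLC6A8, so how far the probes separate both transcripts is uncertain.

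**Figure D1:**
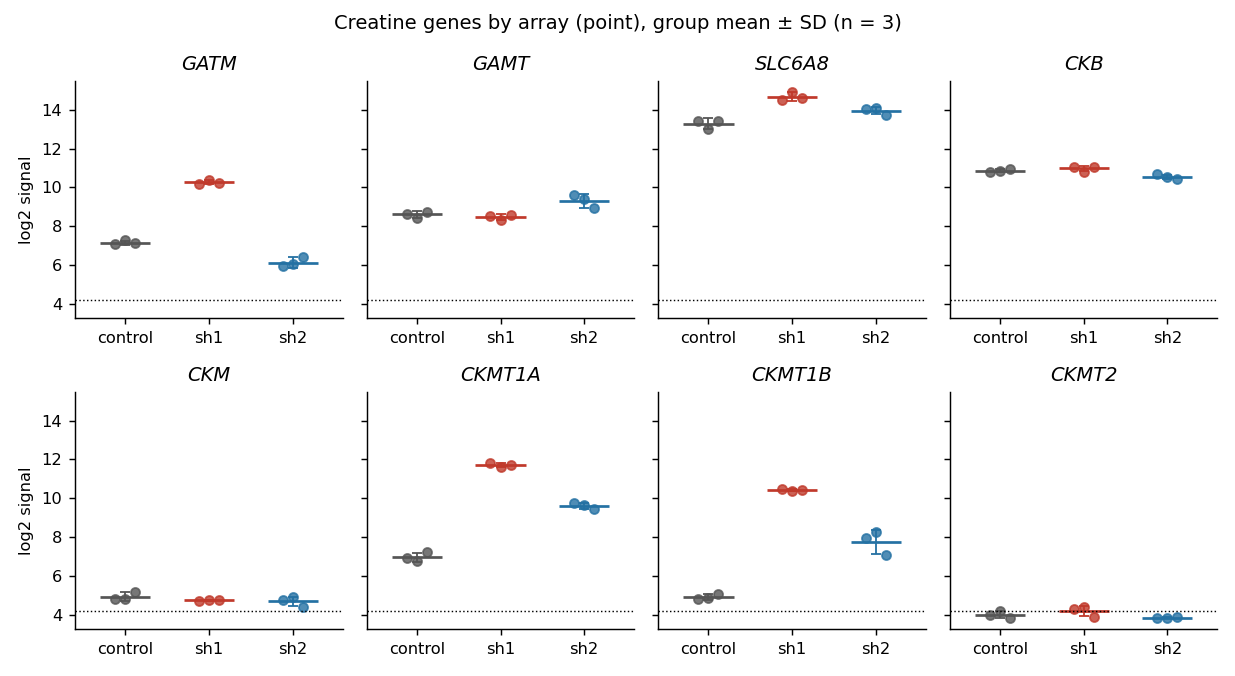
Log2 signal of the 8 creatine genes in each of 9 arrays (points), with the mean (line) and SD (bar) of the 3 arrays per group; the dotted line is the lower quartile of the row means, 4.21. GATM stands above the control in sh1 and below it in sh2, SLC6A8 and both CKMT1 rows stand above the control in both lines, and CKMT2 lies near the dotted line.

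The cytosolic kinases were called in neither line against the control. CKB gave 10.79, 10.85 and 10.96 in the control, 11.07, 10.82 and 11.05 in sh1, and 10.67, 10.54 and 10.46 in sh2. The sh1 arrays overlapped the control, and the sh2 arrays lay below both other groups. The differences from the control were 0.11 ± 0.13 in sh1 and -0.31 ± 0.13 in sh2, at limma adjusted p-values of 0.621 and 0.134. Between the lines CKB differed by -0.42 ± 0.13, sh2 minus sh1, at an adjusted p of 0.0551, which over the alternatives ran from 0.0234 to 0.204. CKM, whose product serves muscle, gave 4.78, 4.82 and 5.19 in the control, 4.72, 4.75 and 4.75 in sh1, and 4.75, 4.89 and 4.41 in sh2. Its differences were -0.19 ± 0.16 and -0.25 ± 0.16 (limma, adjusted p = 0.481 and 0.357), and although the 3 sh1 arrays lay just below the control arrays, 34.5% of all rows had groups without overlap in that comparison. Of 12 striated muscle markers, 0 were called in sh1 and 1 (ACTA1, a sarcomeric actin, -0.45) was called lower in sh2 by limma. The log2 of their summed signal was 11.24 to 11.36 in the control, 11.08 to 11.29 in sh1 and 10.86 to 10.89 in sh2. It mostly follows ACTA1, with means of 11.07, 10.97 and 10.62 in control, sh1 and sh2.

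The rows of the ubiquitous mitochondrial kinase stood far above the control in both lines. The CKMT1B row gave 4.80, 4.83 and 5.07 in the control, 10.45, 10.36 and 10.40 in sh1, and 7.97, 8.25 and 7.06 in sh2. The CKMT1A row gave 6.90, 6.74 and 7.22 in the control, 11.82, 11.62 and 11.70 in sh1, and 9.74, 9.65 and 9.42 in sh2. In both rows the groups did not overlap and had the same order, control, sh2, sh1. The difference from the control was 5.50 ± 0.25 (SE) for CKMT1B and 4.76 ± 0.15 for CKMT1A in sh1, or 45.4-fold and 27.1-fold. In sh2 it was 2.86 ± 0.25 and 2.65 ± 0.15, or 7.26-fold and 6.28-fold. The control mean of the CKMT1B row, 4.90, was near the lower quartile of 4.21, so its fold values rest on a low control signal. The lines stood apart by -2.64 ± 0.25 for CKMT1B and -2.11 ± 0.15 for CKMT1A, sh2 minus sh1. The rows belong to near-identical copies and are not taken as independent measurements. Since the separation of the copies by the probes was not checked, which copy gave rise to the signal cannot be read from these rows. The sh2 arrays of the CKMT1B row varied more (SD 0.62) than those of the CKMT1A row (SD 0.17), through sh2 array 3. That array was also the sh2 array nearest to the control for CKMT1A (9.42), GATM (6.43), GAMT (8.92) and SLC6A8 (13.75). For CKB and CKM it was the furthest from it.

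CKMT2, the sarcomeric mitochondrial kinase, was at background. It gave 3.97, 4.18 and 3.84 in the control, 4.28, 4.37 and 3.89 in sh1, and 3.83, 3.83 and 3.88 in sh2, with all 3 group means under the lower quartile. Its differences from the control were 0.18 ± 0.15 and -0.15 ± 0.15 (limma, adjusted p = 0.478 and 0.589).

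Among the 6 tested members, 2 were called higher by limma in sh1 (GATM and SLC6A8) and the other 4 were not called, where 18.8% of all rows were called and 9.76% were called higher. In sh2, 2 were called higher (GAMT and SLC6A8) and 1 lower (GATM), against 8.33% and 7.98% of all rows. Between the lines, 1 was called higher in sh2 (GAMT) and 2 lower (GATM and SLC6A8), against 5.73% and 5.57% of all rows, or 11.3% in either direction. Counted over all 8 members, the CKMT1 rows included, groups did not overlap for 5 members in sh1 against the control, 6 in sh2 against the control and 7 between the lines. The shares of all rows were 34.5%, 32.5% and 27.1%, and nothing is read from these counts since they include the rows that led to the group. The median difference over the 6 tested members was 0.14 in sh1 and -0.20 in sh2, with a median of 0.02 over all rows in each; with the CKMT1 rows, whose high values led to the group, it was 0.78 and 0.26. These shares are a description of a small group and are not a test of it. The comparisons of sh1 and sh2 share their 3 control arrays.

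**Figure D2:**
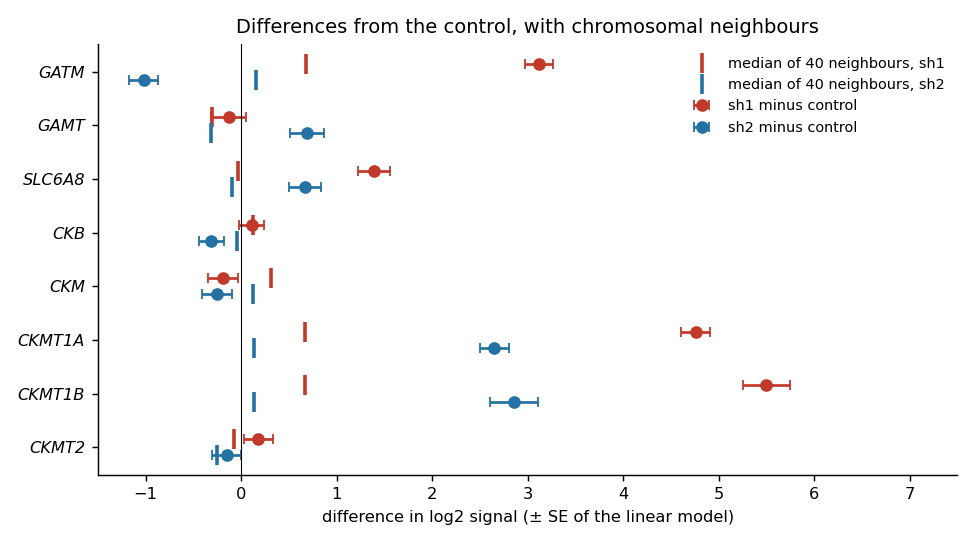
Difference in log2 signal from the control for each creatine gene (circles, ± SE of the linear model) in sh1 (red) and sh2 (blue), with the median difference of the 40 nearest expressed genes on the same chromosome (vertical ticks). CKMT1B, CKMT1A and GATM reach 5.50, 4.76 and 3.12 in sh1, while their neighbours have medians of 0.67, 0.67 and 0.68.

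GATM, CKMT1A and CKMT1B lie on chromosome 15, where 324 expressed rows had a median difference of 0.76 in sh1 and 0.25 in sh2. The 40 expressed rows nearest to both CKMT1 genes, from MGA to SQOR, had a median difference of 0.67 in sh1 (range -0.27 to 1.53), and 30 of them were called higher and 0 lower by limma. In sh2 their median was 0.14 (-0.52 to 0.55), with 4 called higher and 0 lower. The CKMT1 rows exceeded all 40 neighbours in both lines. For GATM, whose 40 neighbours run from EHD4 to CEP152, the median was 0.68 in sh1 and 0.16 in sh2. GATM exceeded all 40 in sh1 and lay below all 40 in sh2 (-0.41 to 0.90).

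With the median of the 40 neighbours subtracted in each array, GATM remained 2.40 ± 0.15 higher in sh1 and -1.23 ± 0.15 in sh2 (limma, adjusted p = 2.46e-07 and 9e-05, and 6.22e-10 to 2.42e-06 and 9e-05 to 0.0044 over all alternatives). The CKMT1B row then stood 4.81 above the control in sh1 and 2.70 in sh2, and the CKMT1A row 4.07 and 2.49. The gene next to GATM, AFG2B, which encodes an AAA ATPase and was singled out after its values were seen, was the neighbour with the largest difference in sh1. It rose by 1.53 in sh1 and by 0.53 in sh2, at limma adjusted p-values of 1.65e-05 and 0.0233, so that it moved with GATM in sh1 and against it in sh2. Between the CKMT1 copies lie STRC and CATSPER2, which differed by -0.46 and 0.16 in sh1 (limma, adjusted p = 0.242 and 0.674), with all group means of STRC under the lower quartile. On the outer side of CKMT1B, PPIP5K1, an inositol phosphate kinase gene, rose by 0.58 in sh1 (adjusted p = 0.0219) and differed by -0.22 in sh2 (adjusted p = 0.422). On the outer side of CKMT1A, PDIA3 rose by 0.69 in sh1 (adjusted p = 0.00133) and by 0.55 in sh2 (adjusted p = 0.00677).

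**Figure D3:**
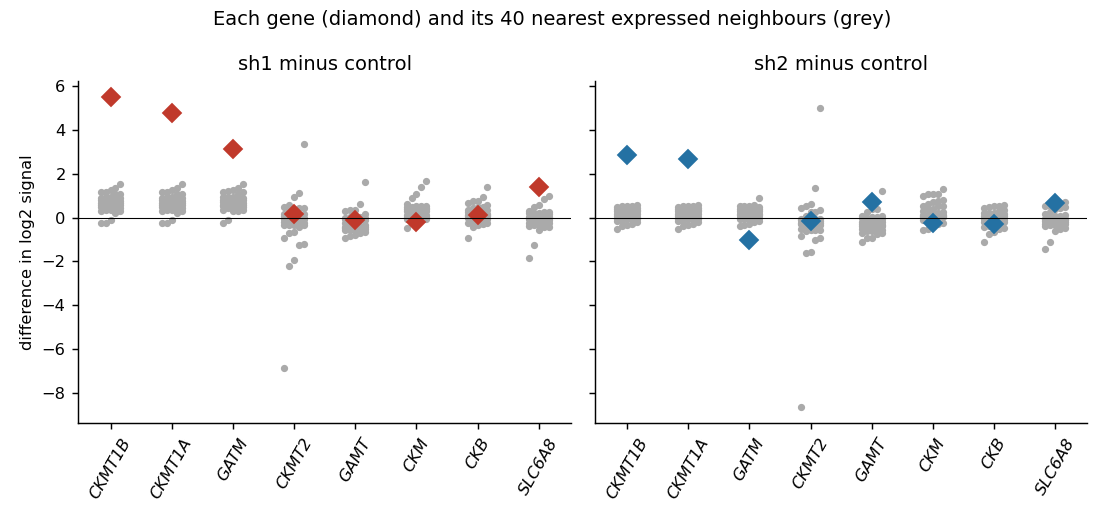
Difference in log2 signal from the control for each creatine gene (diamonds) and its 40 nearest expressed neighbours (grey), in sh1 (left) and sh2 (right). The neighbours of the chromosome 15 genes centre on 0.67 to 0.68 in sh1, and in sh2 GATM lies below and both CKMT1 rows lie above all of theirs.

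The neighbours of the other members were set beside them in the same way. SLC6A8 on chromosome X lay above all 40 of its neighbours in sh1 (median -0.03) and above 39 of 40 in sh2 (median -0.09). GAMT on chromosome 19 had neighbours with a median of -0.30 in sh1 and -0.32 in sh2, and exceeded 39 of 40 in sh2. After neighbour subtraction its rise in sh2 was 0.98 ± 0.16 (limma, adjusted p = 0.000968, with 0.000968 to 0.0806 over all alternatives). The neighbours of CKMT2 on chromosome 5 had medians of -0.07 and -0.25, and those of CKB on chromosome 14 medians of 0.12 and -0.04. For CKM on chromosome 19 the medians were 0.31 and 0.12, and after subtraction its differences were -0.40 ± 0.15 in sh1 and -0.44 ± 0.15 in sh2 (limma, adjusted p = 0.0716 and 0.0584). Before subtraction they were -0.19 and -0.25, so subtracting neighbours that were higher itself moved them down. CKM had means of 4.93, 4.74 and 4.68 in control, sh1 and sh2, near the lower quartile of 4.21.

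Rows with a profile like that of a member were ranked by the root-mean-square distance of their array values, centred on the row mean, over 9 arrays. Nearest to GATM were DSE, an epimerase of dermatan sulfate synthesis (distance 0.194, r = 0.994), and DSP, the desmosomal plaque protein desmoplakin (0.223, r = 0.994). TMPRSS2, a membrane serine protease (0.429), MTUS1 (0.538) and RRAGD, a Rag GTPase of nutrient sensing (0.544), came next. DSE differed from the control by 2.78 in sh1 and -1.35 in sh2, and DSP by 2.96 and -0.84. Of these 5 genes none lies on chromosome 15, and 3 lie on chromosome 6. Nearest to the CKMT1A row were NID1, a basement membrane nidogen (0.381), the CKMT1B row (0.393) and PLEKHG1 (0.398), followed by OLR1, a lectin-like receptor for oxidised lipoprotein (0.435), and the adhesion receptor ADGRG2 (0.484). Nearest to SLC6A8 were GPR137B (0.144), SIN3A, a corepressor scaffold (0.150), and AGRN, the proteoglycan agrin (0.151). The points of these correlations are the same 9 arrays in 3 groups, so a high r mostly reflects the order of 3 group means.

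Among genes for the substrates and partners of this pathway, called genes went both ways. The 8 lists held 79 genes, of which 63 had a row with 1 symbol. In sh1, 14 were called higher and 10 lower by limma, and in sh2, 14 and 8. The share called was 38.1% in sh1 and 34.9% in sh2, against 18.8% and 16.3% of all rows and 30.0% and 26.5% of rows with a mean above the median. The count in sh1 fell from 24 to between 19 and 21 on leaving out any control or sh1 array. It was 19 with neighbour subtraction and 18 at an adjusted p under 0.01. The count in sh2 fell from 22 to 13 or 14 on leaving out any control array or array 2 or 3 of sh2. It was 21 with neighbour subtraction and 10 at an adjusted p under 0.01. With a 2-fold minimum, 5 were called in each line. The median difference was 0.01 in sh1 and 0.07 in sh2. Differences of single genes below are given without neighbour subtraction. Among called genes, VDAC1, MTRR and SLC25A2 lie on chromosome 5, where expressed rows had medians of -0.31 in sh1 and -0.53 in sh2. SHMT2, PRKAB1, PRKAG1 and ATP2A2 lie on chromosome 12, with a median of 0.32 in each line.

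Arginine is the amidino donor for GATM. Of 8 measured genes of arginine and ornithine supply, 3 were called higher in sh1 and 1 in sh2, and 0 were called lower by limma. Of the 3, SLC7A2 (0.72 in sh1) and SLC25A2 (0.48 in sh1), both carriers of basic amino acids, had all group means under the lower quartile. SLC7A1, the main cationic amino acid importer, rose by 0.62 and 0.63 in sh1 and sh2, with adjusted p = 0.00965 and 0.0105. ASS1 and ASL, which make arginine from citrulline, differed by 0.19 and 0.11 in sh1 and by -0.01 and 0.08 in sh2 (limma, adjusted p = 0.605, 0.697, 0.99 and 0.779). OAT, which uses the ornithine that GATM releases, differed by 0.09 and 0.10 (adjusted p = 0.674 and 0.646).

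Glycine accepts the amidino group. Of 8 measured genes of serine and glycine supply, 3 were called higher and 0 lower in sh1, 4 higher and 1 lower in sh2, and 3 were higher in both. PHGDH, the first enzyme of serine synthesis, rose by 0.83 and 0.86 in the lines (limma, adjusted p = 0.00047 and 0.000458), and PSAT1, the aminotransferase after it, by 0.90 and 0.78 (adjusted p = 0.000725 and 0.0023). SHMT2, which turns serine into glycine in mitochondria, was higher in both as well (0.89 and 1.04). The glycine cleavage gene GLDC rose by 0.70 in sh2 (adjusted p = 0.04), where its difference from sh1 did not pass (adjusted p = 0.149), and GCSH, another gene of that system, fell by 0.66 in sh2 (adjusted p = 0.0321).

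S-adenosylmethionine is the methyl donor for GAMT. Of 13 genes of the methionine and methyl donor cycle, 3 were called higher and 2 lower in sh1, and 3 higher and 1 lower in sh2. MAT2A, which makes S-adenosylmethionine in most cells, rose by 0.44 in sh2 (limma, adjusted p = 0.0421), with a difference of 0.23 in sh1 (adjusted p = 0.28). CBS, which takes homocysteine out of the cycle, rose by 0.97 and 1.06 (adjusted p = 0.000106 and 7.21e-05), and AHCYL1, a relative of the S-adenosylhomocysteine hydrolase, rose by 1.22 in sh1 (adjusted p = 4.1e-05). AHCY itself, the hydrolase, differed by -0.06 and -0.17 (adjusted p = 0.827 and 0.462). NNMT, a competing methyltransferase, fell by 0.89 and fell by 0.71 (adjusted p = 0.00436 and 0.0177), and MTRR, which reactivates methionine synthase, fell by 0.93 in sh1 (adjusted p = 0.000303).

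Mitochondrial creatine kinase works beside porins and nucleotide translocators, and none of those measured was called higher. Of 6 measured translocator, porin and carrier genes, 0 were called higher in either line, 1 was called lower in sh1 and 2 in sh2. The porin VDAC1 fell by 0.55 and fell by 0.54 in the lines (limma, adjusted p = 0.00933 and 0.0115), and VDAC3 fell by 0.41 in sh2 (adjusted p = 0.0283). The fall of VDAC1 in sh2 was close to the median of chromosome 5 in that line, -0.53. The adenine nucleotide translocators SLC25A4 and SLC25A5 differed by -0.03 each in sh1 and by -0.03 and 0.02 in sh2 (adjusted p = 0.896, 0.907, 0.912 and 0.953).

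Adenylate kinases form another phosphate relay. Of 10 measured adenylate and nucleoside diphosphate kinase genes, 2 were called higher and 3 lower in sh1, and 2 higher and 1 lower in sh2. AK4, a mitochondrial matrix form, fell by 1.25 in sh1 and fell by 2.07 in sh2, at limma adjusted p-values of 0.000255 and 6.1e-06. AK5 fell by 0.55 in sh1 and rose by 0.43 in sh2, at limma adjusted p-values of 0.00627 and 0.027 (0.000192 between the lines). CMPK2, a mitochondrial nucleotide kinase gene with a control mean under the lower quartile, rose by 1.15 in sh1 (adjusted p = 0.000126). AK3, another matrix form, fell by 0.49 in sh1 (adjusted p = 0.0224), and NME4, a mitochondrial nucleoside diphosphate kinase, rose by 0.45 and 0.48 (adjusted p = 0.0244 and 0.0208). AK1, the main cytosolic form, differed by -0.02 and -0.32 (adjusted p = 0.969 and 0.492).

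Of the carriers related to SLC6A8, the taurine transporter SLC6A6 moved against it. SLC6A6 fell by 1.65 in sh1 and fell by 0.90 in sh2, at limma adjusted p-values of 7.95e-06 and 0.00089, and the other 4 measured genes of that list, among them the creatine carrier SLC16A12 (0.34 and -0.06), were not called. SLC16A12 had all group means under the lower quartile, as did SLC6A13, so a change in them could hardly be seen. Among 7 genes for subunits of AMPK, the kinase that senses low energy, 2 were called higher and 1 lower in each line. PRKAG2 rose by 0.96 and 0.72 (adjusted p = 0.000389 and 0.00327), and PRKAB2 fell by 0.47 and fell by 0.86 (adjusted p = 0.035 and 0.0012). PRKAB1 rose by 0.73 in sh1 (adjusted p = 0.00453) and PRKAG1 rose by 0.41 in sh2 (adjusted p = 0.0322). Among 6 measured pump genes, which consume ATP, 1 was higher and 2 lower in sh1, and 2 higher and 1 lower in sh2. ATP2B4, a plasma membrane calcium pump, fell by 1.77 and fell by 1.09 (adjusted p = 2.33e-06 and 0.000116), and ATP1B1, a sodium pump subunit, fell by 0.76 in sh1 and rose by 1.52 in sh2 (adjusted p = 0.000983 and 6e-06). ATP2A2, a calcium pump of the endoplasmic reticulum, rose by 0.54 and 0.38 (adjusted p = 0.0055 and 0.0396).

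**Figure D4:**
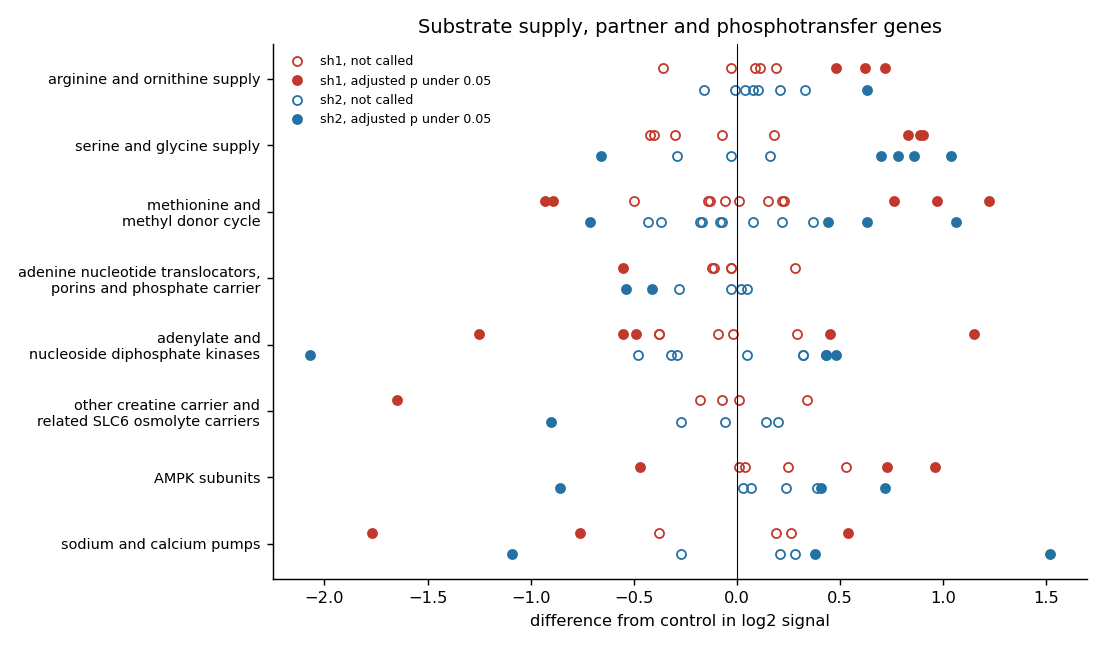
Difference in log2 signal from the control for the 63 measured genes of 8 lists around creatine metabolism, in sh1 (red) and sh2 (blue); filled points have a limma adjusted p under 0.05. PHGDH, PSAT1 and SHMT2 form the higher points of the serine and glycine list in both lines, and AK4 is the lowest point of its list at -1.25 and -2.07.

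GATM is abundant in exocrine pancreas, so acinar markers were looked at beside it. Of 7 measured acinar markers, 0 were called against the control in either line by limma, and 4 were under the lower quartile in all 3 groups. The log2 of their summed signal was 6.91 to 7.17 in the control, 6.81 to 7.15 in sh1 and 6.93 to 7.09 in sh2, ranges that overlapped. Between the lines 1 of the 7 was called. PNLIP differed by 0.74, sh2 minus sh1 (limma, adjusted p = 0.0112), against the direction of GATM, with an sh1 mean under the quartile.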

How the data were processed

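Total RNA (100 ng) was labelled with biotin by the WT Plus kit, per the labels' protocols. The deposited table holds log2 signals that the authors summarised and normalized across arrays with Transcriptome Analysis Console, per the submitters' processing notes, and the sources used here name neither version nor settings. The scale was read from the values (2.03 to 18.57, similar quartiles in each array). They were used as deposited. limma 3.58.1 in R 4.3.3 fitted 1 linear model over 9 arrays and 21448 rows, with Benjamini-Hochberg adjustment over all rows and calls at an adjusted p under 0.05. Adjusted p-values come from that fit, except those given for an alternative, which come from a limma refit under that setting. The fit was tested on simulated data. Neighbours were the 40 nearest rows with 1 symbol and a mean above the median of row means, ordered by the RefSeq annotation of GRCh38.p14. Named genes include the members, STOML2, up to 4 called genes per list by size and further substrate or partner genes. For each member whose group means span at least 1, the 5 rows most like it were ranked. All 5 are named for GATM and CKMT1A and the nearest 3 for SLC6A8, and those of CKMT1B are not listed. The members and lists were chosen with earlier results of these data known. Depth has no counterpart here; the number of arrays limits the precision. Alternatives covered scaling, low rows, prior, samples, replicate block, threshold, neighbours and leaving out each array.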

Additional observations from a re-analysis of the deposited data

Results flagged for a closer look

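For 3 of the 6 tested members, the knockdown lines differed from each other in the direct comparison of sh2 with sh1 (limma, adjusted p under 0.05). In that comparison 11.3% of all rows were called, and in 27.1% of all rows the arrays of both lines did not overlap. GATM differed by -4.14 on the log2 scale (adjusted p = 2.57e-08), with 3 of 3 sh2 arrays below all sh1 arrays. GAMT differed by 0.83 (adjusted p = 0.0105), with 3 of 3 sh2 arrays above all sh1 arrays. SLC6A8 differed by -0.72 (adjusted p = 0.0193), with 3 of 3 sh2 arrays below all sh1 arrays. Each line is 1 clone, so hairpin and clone cannot be told apart.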

How the results depend on the processing

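GATM kept its calls and directions in all 3 comparisons under all 19 alternatives, and so did SLC6A8 in sh1. No called value changed sign. Differences that were not called did so with neighbour subtraction for GAMT in sh1 (to 0.09), CKB in sh1 (to -0.01) and CKMT2 in sh2 (to 0.10), and without sh2 array 3 for CKM between the lines (-0.16 to 0.08 on leaving out 1 array). At an adjusted p under 0.01, the rows called were 2425 in sh1, 1921 in sh2 and 1331 between the lines, and with a 2-fold minimum 1203, 970 and 756, against 4025, 3498 and 2423. In sh2 and between the lines 1 of the 6 tested members (GATM) was called under either rule, in place of 3. Leaving out 1 array at a time left 2 called members in sh1 each time, 1 to 3 in sh2 and 2 to 3 between the lines, with fewer samples in each fit. CKB passed between the lines (adjusted p = 0.0234 to 0.04) without low rows, with a floor, with an intensity trend or without sh1 array 2. Numbers in the array names did not pair the arrays throughout: deviations of same-numbered arrays correlated at -0.0358 to 0.180, and 7 of 18 best matches had the same number. Arrays numbered 1 were the exception, each being the best match of the others across groups. Control array 1 correlated at 0.0856 with sh1 array 1 and at 0.1803 with sh2 array 1. The value between sh1 array 1 and sh2 array 1 was 0.1215. Some arrays with unlike numbers reached similar values, such as sh2 array 2 with sh1 array 3 (0.1086). A shared run of some arrays was not tested. With the replicate block, 3996 rows were called in sh1, 3432 in sh2 and 2364 between the lines, and 2, 3 and 3 tested members. CKMT2, with a mean under the quartile, had no value in the fit without low rows. The CKMT1 rows moved by more than the spread of their arrays under neighbour subtraction in sh1 (to 4.07 for CKMT1A and 4.81 for CKMT1B) and, for CKMT1A, between the lines (to -1.58).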
